A study of Mus musculus with 16 samples.

Results

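The small leucine-rich proteoglycans are secreted matrix proteins with a core of leucine-rich repeats, and 10 of their genes were examined by gene symbol in the deposited table of 54532 genes. They were Bgn (biglycan), Dcn (decorin), Lum (lumican), Fmod (fibromodulin), Ogn (osteoglycin), Prelp (prolargin), Omd (osteomodulin), Aspn (asporin), Chad (chondroadherin) and Podn (podocan). RNA had been sequenced from 16 aortas of male C57BL/6j mice, 8 to 12 weeks old and, by their labels, Apoe-/- in both groups, so the controls also lacked apolipoprotein E. One group of 8 had received the vasoconstrictor hormone angiotensin II (Ang II) at 1000 ng/kg/min, and the other group of 8 had received 0.9% saline. Both had Alzet osmotic pumps for 7 days, and the adventitia, the outer layer of the wall, had been removed from each aorta. The library names carry the letters WT although the genotype is given as Apoe-/-. The labels do not say which mouse each sample came from, and every p-value therefore reflects spread between samples that may be technical.

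These proteins coat collagen fibrils and set their diameter and spacing, and several also hold growth factors or bind receptors on cells. Many carry chondroitin, dermatan or keratan sulfate chains, which draw water into the matrix. They fall into 5 classes by sequence. In arteries biglycan, decorin and lumican are the members best known, and biglycan is known for binding lipoproteins in the intima. Mouse and human mutations of BGN are known to weaken the aortic wall.

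Of the 10 genes, 3 were higher and 3 were lower with Ang II, and 4 did not pass the test. Bgn, Chad and Podn rose, and Ogn, Prelp and Omd fell. Dcn, Lum, Fmod and Aspn were not called in either direction. Calls came from limma on log2(FPKM + 1), where FPKM is fragments scaled by transcript length and library size, with a Benjamini-Hochberg adjusted p under 0.05 over all genes tested. Among the 15007 genes tested, those with a mean of at least 0.5 FPKM, 9.54% were called higher and 24.9% were called lower. Either call was made for 34.5% of them. All 10 proteoglycan genes passed the level filter, the lowest being Fmod with a mean of 2.22 FPKM over the 16 libraries. Their median log2 fold change was -0.31, against -0.12 over all genes tested. The median over all genes was -0.02 after quantile normalization and -0.01 after scaling by median ratios. Single genes moved by other amounts: Bgn was 0.80, Ogn -1.20 and Prelp -1.21 after quantile normalization, against 0.95, -1.40 and -1.40 here. After scaling by median ratios Bgn was 1.09, Ogn -1.25 and Prelp -1.26, so the 2 scalings moved Bgn in opposite directions. The 1431 higher and 3741 lower calls over all genes became 2270 and 2374 after quantile normalization, and 2235 and 2113 after scaling by median ratios. The same 3 proteoglycan genes were higher and the same 3 lower under both scalings.

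**Figure D1:**
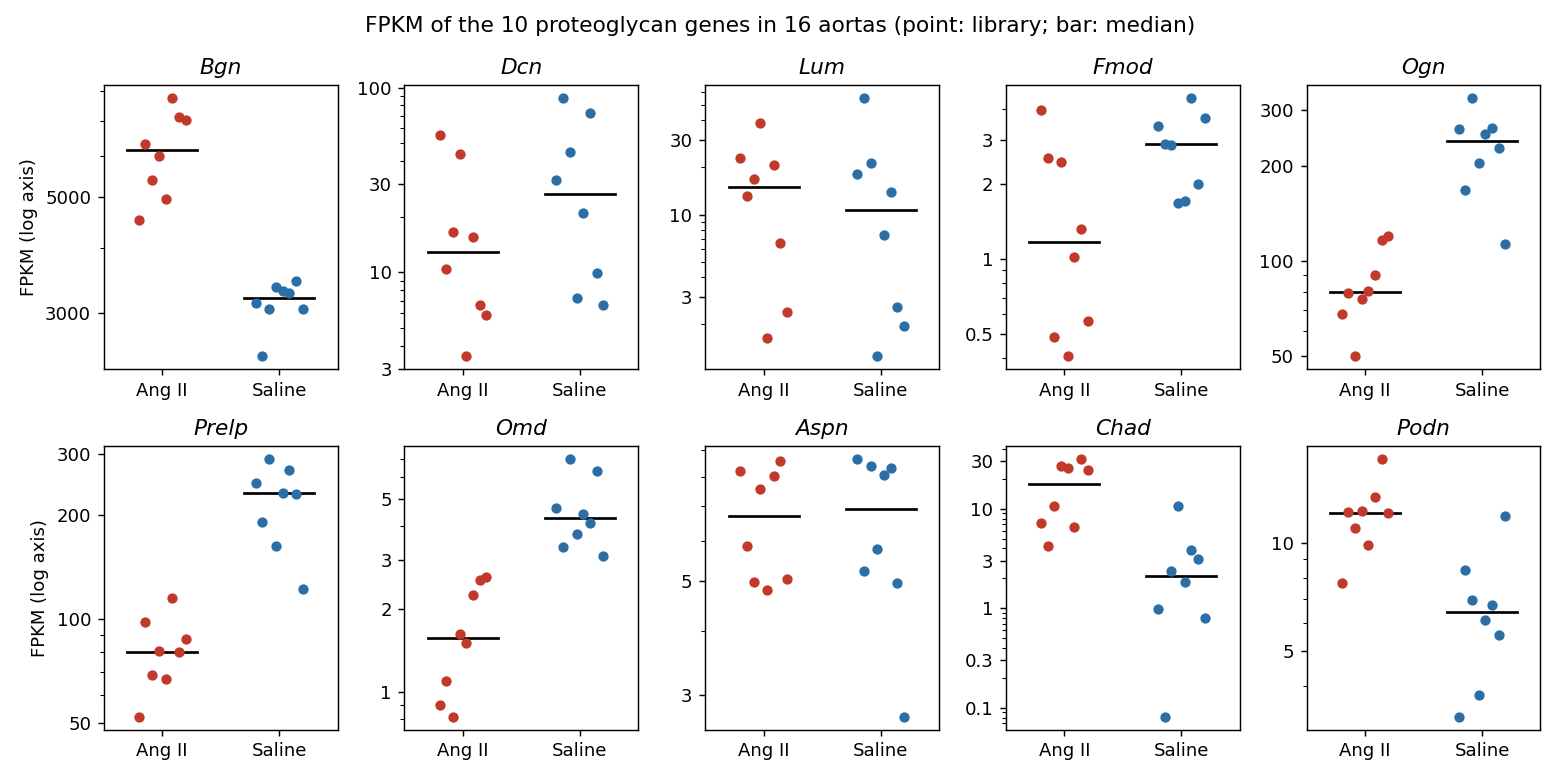
FPKM (vertical log axis, scaled for each gene) of the 10 proteoglycan genes in the 8 Ang II and the 8 saline libraries; each point is a library and each bar the group's median. The groups are apart for Bgn, Prelp and Omd, and they overlap for the other 7 genes, least for Ogn and most for Lum and Aspn.

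**Figure D2:**
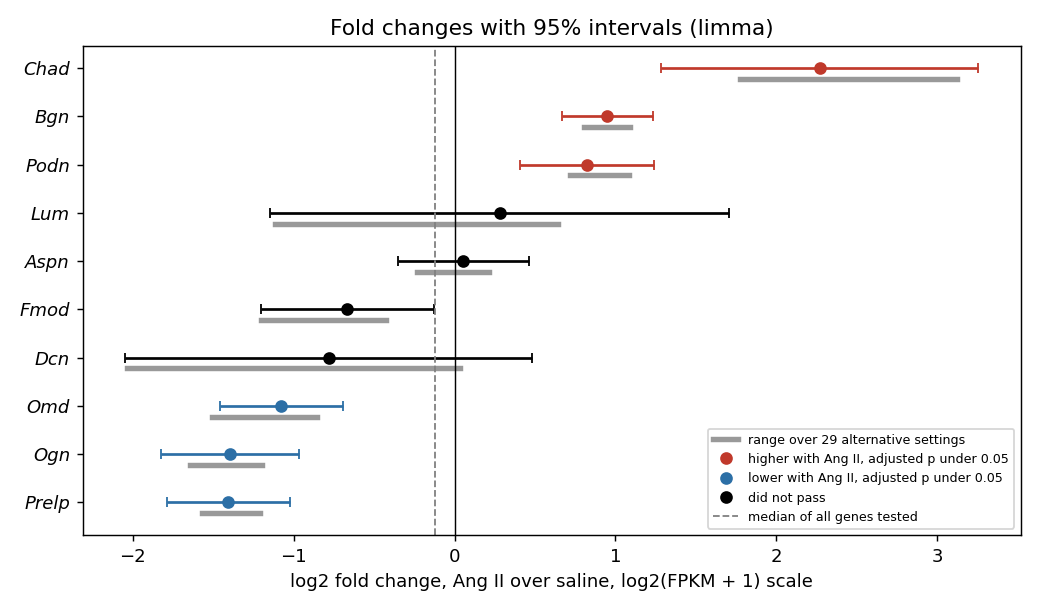
Log2 fold change of each gene, Ang II over saline, on the log2(FPKM + 1) scale (horizontal axis), with limma's 95% interval as a thin bar, the range over 29 alternative settings as a grey bar, and the median of all genes tested, -0.12, as a dashed line. The 6 genes called in colour keep their side of 0 over the whole grey range, from Chad at 2.27 to Prelp at -1.40, while Lum, Aspn and Dcn cross it.

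Promoters were looked up in RefSeq (build GRCm38.p6), where 8 of the 10 genes matched 9 promoters, Podn having 2. No promoter was matched for Dcn or Lum. Those of Bgn, Chad, Ogn and Prelp are shown because they belong to the genes of highest level and of largest rise and fall. Each is the 250 bases before the RefSeq start, read 5′ to 3′ on the gene's strand. The position is chrX:73483351-73483600 (plus strand) for Bgn, chr11:94564797-94565046 (plus) for Chad, chr13:49607765-49608014 (plus) for Ogn and chr1:133921402-133921651 (minus) for Prelp. Capitals mark matches on either strand to any of 3 motifs. These were CCCTCCC, a pyrimidine run chosen for its repeats here, then GGAATG, the motif of TEAD factors, and lastly TATAAA, that of the TATA box.
Bgn: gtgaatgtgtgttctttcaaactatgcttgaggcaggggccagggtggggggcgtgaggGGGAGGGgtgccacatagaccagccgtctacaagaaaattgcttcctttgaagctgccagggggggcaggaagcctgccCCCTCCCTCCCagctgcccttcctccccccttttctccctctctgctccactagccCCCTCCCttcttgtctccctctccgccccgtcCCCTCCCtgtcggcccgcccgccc
Chad: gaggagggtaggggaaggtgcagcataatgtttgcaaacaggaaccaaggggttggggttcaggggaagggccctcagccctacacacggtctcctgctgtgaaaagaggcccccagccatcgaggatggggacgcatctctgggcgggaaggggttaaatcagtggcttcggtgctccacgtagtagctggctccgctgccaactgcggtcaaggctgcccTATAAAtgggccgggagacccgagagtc
Ogn: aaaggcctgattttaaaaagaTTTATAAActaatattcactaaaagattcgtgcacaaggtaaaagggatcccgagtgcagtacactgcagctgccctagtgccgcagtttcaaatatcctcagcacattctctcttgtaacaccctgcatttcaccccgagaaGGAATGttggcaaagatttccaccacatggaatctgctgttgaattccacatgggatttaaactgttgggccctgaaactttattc
Prelp: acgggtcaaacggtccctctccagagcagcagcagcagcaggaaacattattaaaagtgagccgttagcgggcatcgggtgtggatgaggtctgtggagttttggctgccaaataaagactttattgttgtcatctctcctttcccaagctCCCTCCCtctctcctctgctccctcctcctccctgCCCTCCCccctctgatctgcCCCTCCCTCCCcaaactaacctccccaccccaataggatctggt
The promoter of Bgn had a GC content of 64.4% and held 5 matches to CCCTCCC, of which 2 overlapped. That of Prelp, 55.6% GC, held 4, of which 2 overlapped, so the gene with the highest level and a gene that fell both had repeats of this motif. CCCTCCC was present in 5 of the 9 promoters, also in Fmod and in both of Podn, and in 19.7% of all 32851 promoters searched. TATAAA lay 28 to 23 bases before the start in Chad, where TATA boxes usually lie. In Ogn it lay 229 to 222 bases before it, as a pair of overlapping matches on opposite strands, and in Aspn at 207 to 202 and 178 to 173. It was in 12.4% of all promoters. GGAATG was found in Ogn, at 86 to 81 bases before the start, and in 12.6% of all promoters. No match was found in these windows to the CArG box bound by SRF (1.47% of all promoters), to TGANTCA bound by AP-1 (6.75%) or to CAGACA bound by SMAD factors (17.1%). CAGACA did occur in the 50 bases after the start, 2 times in Prelp and 1 time in 1 of the Podn promoters. These matches describe letters in the windows and no binding was measured.

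Among class I members, Bgn rose while Dcn and Aspn did not pass. Bgn lies at chrX:73483602-73495933 on the plus strand of GRCm38, and its product binds collagen, transforming growth factor beta and the receptors Tlr2 and Tlr4. It had 4523, 6164 and 7757 FPKM (lowest, median and highest) in Ang II libraries, against 2486, 3213 and 3458 FPKM in saline libraries. All 8 Ang II libraries lay above all 8 saline libraries, which was so for 2.74% of the genes tested. The means were 6141 ± 1131 FPKM with Ang II and 3146 ± 305 FPKM with saline (SD, n = 8 each), a log2 fold change of 0.95 (SE 0.13, limma adjusted p = 6.22e-05). By mean FPKM Bgn was in place 9 of all genes with Ang II and in place 16 with saline, and it took 0.898% of reads with Ang II and 0.460% with saline.

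Dcn, whose product binds collagen fibrils and transforming growth factor beta, lies at chr10:97479609-97518143. It had 3.51, 12.9 and 55.1 FPKM in Ang II libraries, against 6.62, 26.3 and 87.9 FPKM in saline libraries. The groups overlapped in part: Ang II 5, Ang II 7 and Ang II 8 were below every saline library, and the other 5 lay within the saline range, Ang II 1 and Ang II 4 among its higher libraries. The log2 fold change was -0.78 with a 95% interval of -2.05 to 0.48 (limma adjusted p = 0.324), an interval that takes in 0. The coefficient of variation was 97.5% in Ang II libraries and 88.1% in saline libraries, against 18.4% and 9.68% for Bgn. Dcn passed as lower in 1 alternative, with the macrophage marker score as a covariate, at -2.04 (limma adjusted p = 0.0217).

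Aspn, whose product competes with decorin for collagen and carries no sulfated chain, had 4.80, 6.70 and 8.59 FPKM in Ang II libraries, against 2.72, 6.92 and 8.67 FPKM in saline libraries. Its groups covered each other, with only Saline 8 standing below the rest. The log2 fold change was 0.06 with a 95% interval of -0.35 to 0.46 (limma adjusted p = 0.846), and it was -0.08 without Saline 8. Its exons share 0.297% of their bases with Cenpp on the opposite strand.

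In class II, Prelp and Omd fell, and Fmod and Lum did not pass. Prelp encodes an anchor between basement membranes and connective tissue that binds heparan sulfate. It had 52.0, 80.3 and 115 FPKM in Ang II libraries, against 122, 231 and 291 FPKM in saline libraries. The highest Ang II library, Ang II 6, was just under the lowest saline library, Saline 8, and the next saline library was at 162 FPKM. The means were 81.1 ± 19.6 FPKM with Ang II and 218 ± 56.7 FPKM with saline (SD, n = 8 each), a log2 fold change of -1.40 (SE 0.18, limma adjusted p = 2.39e-05). On the log2(FPKM + 1) scale this made the saline level 2.65 times that with Ang II. The value is uncertain in one respect, because 9.68% of the exon bases of Prelp overlap the predicted gene Gm15851 on the opposite strand and whether strand was used in counting is not given in the sources used here.

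Omd, known from bone, where its acidic protein binds mineral and cells, was at a far lower level. It had 0.815, 1.57 and 2.60 FPKM in Ang II libraries, against 3.11, 4.26 and 7.00 FPKM in saline libraries. All 8 Ang II libraries lay below all 8 saline libraries, as did those of Prelp. This held for 5.62% of the genes tested, and counting both directions the groups were apart for 3 of the 10 proteoglycan genes and for 8.36% of all genes tested. The log2 fold change of Omd was -1.08 (SE 0.18, limma adjusted p = 2.85e-04) and was -1.51 from the reads recovered, since adding 1 FPKM shrinks the change of low genes.

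Fmod, whose product binds collagen and lysyl oxidase, had 0.408, 1.17 and 3.96 FPKM in Ang II libraries, against 1.68, 2.88 and 4.43 FPKM in saline libraries. Of the 8 Ang II libraries, 5 were below every saline library, while Ang II 1, Ang II 2 and Ang II 4 lay among them. The log2 fold change was -0.67 (95% interval -1.20 to -0.13), and the limma adjusted p of 0.0515 was just above the threshold. It passed in 8 of 29 alternatives, among them a pseudocount of 0.1 (-1.09, adjusted p = 0.0451) and limma voom on the recovered reads (-1.20, adjusted p = 0.0278), so the call depends on the scale for low values. It also passed without any one of Ang II 1 (-0.82, limma adjusted p = 0.0135), Ang II 2 (-0.75, 0.0336), Ang II 4 (-0.75, 0.0410), Saline 4 (-0.73, 0.0405) or Saline 5 (-0.73, 0.0401).

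Lum, whose product spaces collagen fibrils and keeps the cornea clear, had 1.64, 14.9 and 38.1 FPKM in Ang II libraries, against 1.26, 10.7 and 55.3 FPKM in saline libraries. The groups covered nearly the same range, and the highest library was 23.2 times the lowest with Ang II and 44.0 times with saline. The log2 fold change was 0.28 with a 95% interval of -1.15 to 1.71 (limma adjusted p = 0.774). Its sign turned in 3 alternatives, among them -0.24 without Saline 7 and Saline 8 and -0.02 without Saline 4 alone.

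Ogn, a class III member also called mimecan, fell. It lies at chr13:49608046-49624501 and had 50.03, 79.8 and 120 FPKM in Ang II libraries, against 113, 240.0 and 328 FPKM in saline libraries. The groups overlapped through Saline 8 alone, which was below Ang II 7 and Ang II 8, and the other 7 saline libraries were at 167 FPKM or more. The means were 85.0 ± 23.5 FPKM with Ang II and 227 ± 66.0 FPKM with saline (SD, n = 8 each), a log2 fold change of -1.40 (SE 0.20, limma adjusted p = 8.57e-05). The saline level was 2.63 times that with Ang II on this scale. Without Saline 7 and Saline 8 the log2 fold change was -1.54 for Ogn, -1.52 for Prelp and -1.07 for Omd, and each was still called.

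Chad and Podn, of classes IV and V, both rose. Chad, a cartilage protein that binds collagen and a collagen-binding integrin, lies at chr11:94565047-94569127. It had 4.26, 17.6 and 32.0 FPKM in Ang II libraries, against 0.0815, 2.10 and 10.6 FPKM in saline libraries. Leaving aside Saline 4, the highest of its group, the saline libraries were at 3.84 FPKM or less and so below every Ang II library. The Ang II libraries fell on both sides of a gap, with 4 of them at 4.26 to 10.6 FPKM and 4 at 24.6 to 32.0 FPKM. The means were 17.3 ± 11.1 FPKM with Ang II and 2.96 ± 3.34 FPKM with saline (SD, n = 8 each), a log2 fold change of 2.27 (SE 0.47, limma adjusted p = 0.00148). Saline 2 had 2 reads of Chad, and limma voom on the reads gave a log2 fold change of 3.03. Of the 5 cartilage markers tested 2 rose, Acan by 2.64 and Sox9 by 0.83 on the log2 scale, beside 9.54% higher over all genes tested. Comp, at 76.8 FPKM with Ang II and 47.0 FPKM with saline, was not called (0.61, limma adjusted p = 0.0689). Hapln1 was not called either and lay on the other side of 0 (-0.24, limma adjusted p = 0.329). The summed level of the 10 cartilage markers was 73.9 to 242 FPKM with Ang II and 41.6 to 87.4 FPKM with saline. Matn1, Matn3 and Cnmd averaged under 0.05 FPKM in both groups, and Col2a1 averaged 1.68 FPKM with Ang II and 0.693 FPKM with saline and was not called. The part of cartilage-like cells in the level of Chad was not tested. In RNA from aortic tissue, fewer cells of a type and less RNA per cell cannot be told apart, for this gene and for all those described here.

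Podn, whose product restrains the growth of vascular smooth muscle cells in mice, had 7.76, 12.1 and 17.1 FPKM in Ang II libraries, against 3.29, 6.42 and 11.9 FPKM in saline libraries. Saline 8, at 11.9 FPKM, and Saline 2, at 8.41 FPKM, lay within the Ang II range, and the other 6 saline libraries were below every Ang II library. The means were 12.0 ± 2.73 FPKM with Ang II and 6.59 ± 2.72 FPKM with saline (SD, n = 8 each), a log2 fold change of 0.82 (SE 0.20, limma adjusted p = 0.00457). Without Saline 7 and Saline 8 it was 0.94.

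Levels can be set against each other per length of transcript. By mean FPKM the order with Ang II was Bgn, Ogn, Prelp, Dcn, Chad, Lum, Podn, Aspn, Omd and Fmod. With saline it was Bgn, Ogn, Prelp, Dcn, Lum, Podn, Aspn, Omd, Chad and Fmod. Bgn stood above all others in every library and Fmod was last in both groups by its mean. Chad was in place 5 with Ang II and in place 9 with saline. Ogn and Prelp did not differ beyond their SD in either group. With Ang II each gene from Prelp down to Aspn overlapped with its neighbour in the order, as did Omd and Fmod, while Aspn and Omd were apart. In saline libraries each gene from Dcn down to Fmod overlapped with its neighbour in the order. The order depends on the length used: the FPKM of Bgn rests on 1462 bases and the deposited gene length is 6099 bases. With deposited lengths Bgn, Ogn and Prelp kept the first 3 places in both groups, and Dcn, whose length is then 5838 in place of 1797 bases, moved from place 4 to place 7 with Ang II and to place 5 with saline.

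Bgn made up 96.2% of the summed FPKM of the 10 genes with Ang II (95.2% to 96.8% over libraries) and 85.8% with saline (81.1% to 92.0%). The sum was 6381 FPKM with Ang II and 3666 FPKM with saline. The other 9 genes together summed to 240.1 ± 39.3 FPKM with Ang II and 519.7 ± 140.0 FPKM with saline (SD, n = 8 each). Saline 8, at 266 FPKM, was the one saline library within the Ang II range of 180 to 289 FPKM. Ogn held 1.33% of the summed FPKM of the 10 with Ang II and 6.14% with saline, and Prelp held 1.26% with Ang II and 5.93% with saline. These shares rest on the length used: with the deposited gene lengths Bgn held 88.6% with Ang II and 65.5% with saline, Ogn 5.11% with Ang II and 19.3% with saline, and Prelp 2.99% with Ang II and 11.4% with saline.

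**Figure D3:**
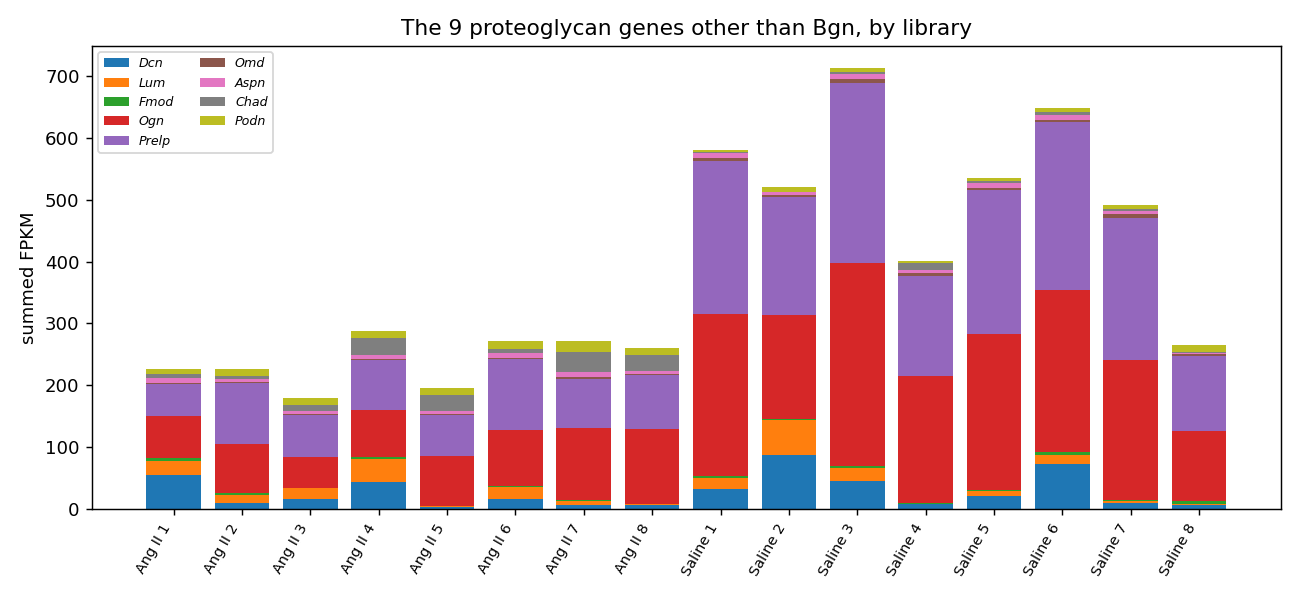
Summed FPKM (vertical axis, from 0) of the 9 proteoglycan genes other than Bgn in each of the 16 libraries, with 1 stacked colour for each gene. Ogn and Prelp make up most of each bar; the 8 Ang II bars reach 180 to 289 FPKM, while 7 of the 8 saline bars are higher and Saline 8 stands at 266 FPKM.

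Within groups, some of the genes varied together from library to library. Correlations were taken between deviations of log2(FPKM + 1) from the group mean over the 16 libraries, for all 45 pairs, with 100000 permutations of libraries within groups. Of the 45 pairs, 3 passed with Pearson's r after Benjamini-Hochberg adjustment. The share of all gene pairs that would pass was not computed, so the count is not shown to be particular to the family. The most alike genes outside it reached r = 0.91 with Ogn (Oxct1) and with Prelp (Wfs1). Dcn and Lum, neighbours on chromosome 10, had r = 0.92 (permutation test, adjusted p = 0.0009) and Spearman's rho = 0.93 (adjusted p = 0.00045). Their r was 0.90 among Ang II libraries, 0.94 among saline libraries and 0.93 without the 2 libraries farthest from the median of Dcn. Ogn and Omd had r = 0.83 (permutation test, adjusted p = 0.00202) and rho = 0.85 (adjusted p = 0.00225), and r stayed at 0.81 without the 2 farthest libraries. Ogn and Prelp had r = 0.74 (permutation test, adjusted p = 0.0351), and rho = 0.71 did not pass (adjusted p = 0.0517). Their r was 0.46 among Ang II libraries and 0.94 among saline libraries, and it was 0.61 without the 2 farthest. The lowest value was that of Lum and Chad, r = -0.54, which did not pass (permutation test, adjusted p = 0.142).

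**Figure D4:**
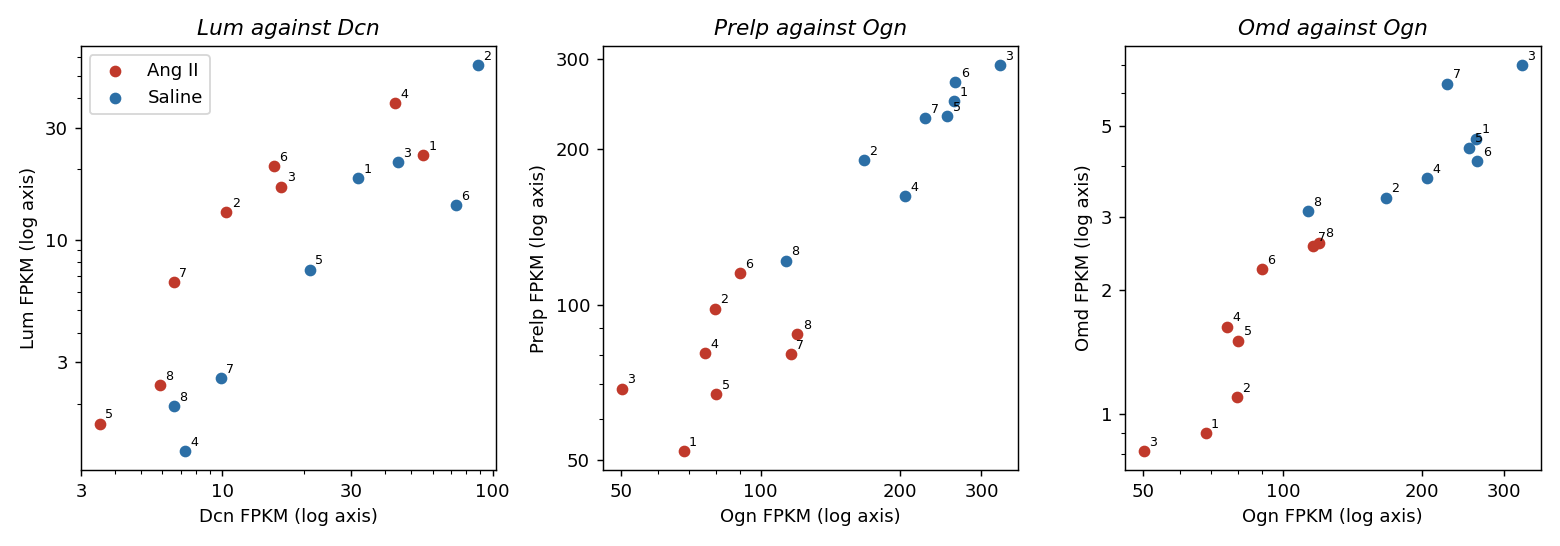
Each panel sets the FPKM of 2 proteoglycan genes against each other on log axes, with 1 point per library, numbered by replicate and coloured by group. Lum follows Dcn in both groups with the colours mixed (r = 0.92 of deviations from group means), while for Prelp and Omd against Ogn the Ang II points lie at the lower left and the saline points at the upper right.

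Genes outside the family whose deviations were most like those of a member are given as a description, over the 16 libraries, which differ in depth and in marker levels. For Bgn they were Itgb5, an integrin subunit (r = 0.92), and Slc18b1 (0.87). Serpina3n, a serine protease inhibitor, was among the nearest of both Dcn (r = 0.86) and Lum (0.90), beside Xdh for Dcn (0.79) and Spp1, osteopontin, for Lum (0.91). Oxct1, an enzyme of ketone body use, and Smim14 were nearest to Ogn (r = 0.91 and 0.88), and Wfs1 and Ankrd39 to Prelp (0.91 and 0.89). Chad had Plxna4, a semaphorin receptor subunit, and Gxylt2 (r = 0.86 each). Omd was nearest to Exoc4 (r = 0.89) and Trappc9 (0.86), Aspn to Ywhab (0.91) and Gatad1 (0.86), Podn to Phc1 (0.87) and Abca2 (0.86), and Fmod, with the weakest likeness, to Atpif1 (0.73) and Mien1 (0.72).

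The balance between members of a class was compared as a ratio within each library. The log2 ratio of Bgn to Dcn, the main class I pair, was 8.71 ± 1.40 with Ang II and 6.98 ± 1.49 with saline (SD, n = 8 each). The difference of 1.73 had p = 0.0339 in an exact two-sided permutation test and did not pass after adjustment over the 2 ratios (adjusted p = 0.0678), with 5 of 8 Ang II libraries above every saline library. Of 20 alternatives run for this ratio, 5 passed and 15 did not, among the latter that without Saline 2, Saline 7 and Saline 8. It passed without Saline 7 and Saline 8, at 2.23 (exact permutation, adjusted p = 0.0306). It also passed without any one of Ang II 1 (2.07), Ang II 4 (1.97), Saline 4 (1.97) or Saline 8 (1.97). Over all single libraries left out, the exact permutation adjusted p reached 0.128. The log2 ratio of Fmod to Lum, which share a binding site on collagen, was -2.31 ± 1.08 with Ang II and -1.37 ± 1.52 with saline (SD, n = 8 each). That difference of -0.95 did not pass (exact two-sided permutation test, p = 0.172).

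Members of the family lie in clusters on chromosomes 13, 1 and 10. On chromosome 13 of GRCm38, Ecm2, Aspn, Omd and Ogn follow each other on the plus strand inside the span of Cenpp, a centromere protein gene on the minus strand. Ecm2, Omd and Ogn fell and Aspn, between Ecm2 and Omd, was not called, and neither was Cenpp at 0.30 (limma adjusted p = 0.0838). On chromosome 1, Prelp at 133910304 to 133921414 and Optc at 133897199 to 133907999 are 2304 bases apart on the minus strand, and both fell. Optc, opticin, known from the vitreous of the eye, had 23.0, 31.0 and 44.5 FPKM in Ang II libraries, against 63.7, 83.0 and 124 FPKM in saline libraries. The groups of Optc were wholly apart, and its log2 fold change of -1.42 (SE 0.16, limma adjusted p = 5.64e-06) was close to that of Prelp. Fmod, 115839 bases on, was not called. On chromosome 10, Dcn and Lum were not called, and Kera and Epyc, their neighbours, were listed at 0 in all 16 libraries.

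**Figure D5:**
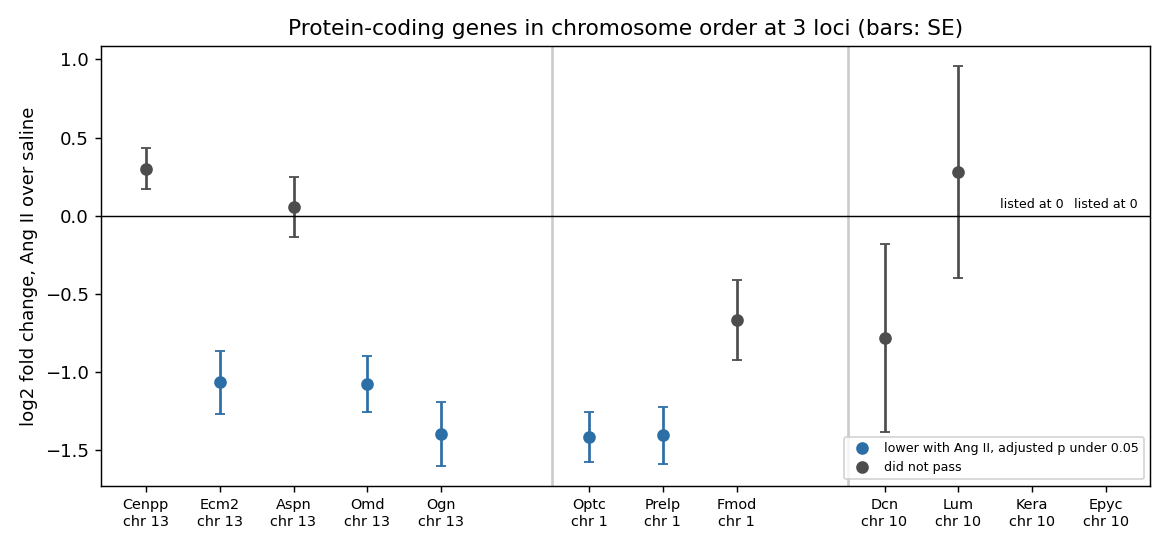
Log2 fold change, Ang II over saline, with SE (vertical axis), of protein-coding genes placed in chromosome order at 3 loci; grey lines part the loci and distances are not to scale. Ecm2, Omd and Ogn on chromosome 13 and Optc and Prelp on chromosome 1 lie between -1.42 and -1.06, Aspn lies at 0.06, and Kera and Epyc are listed at 0 FPKM.

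Of 9 further genes of the family, 4 were tested, of which 1 rose and 3 fell, beside 9.54% higher and 24.9% lower over all genes tested. Besides Optc, Ecm2 fell by 1.06 on the log2 scale (limma adjusted p = 7.55e-04), with 25.0 ± 6.65 FPKM with Ang II and 54.3 ± 16.7 FPKM with saline (SD, n = 8 each). Chadl, a relative of Chad, fell by 0.78 (adjusted p = 0.00436), the direction opposite to Chad, and was not called with the macrophage score as a covariate (-0.62, adjusted p = 0.0717). Tsku, an inhibitor of Wnt and BMP signalling, rose by 0.57 (adjusted p = 0.0222), and it lost that call in 3 alternatives. Nyx, Podnl1 and Nepn were below the filter on low values.

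Genes that build, cut or bind these proteins were counted from lists. Of 22 tested enzymes of the linker and of chondroitin and dermatan sulfate chains, 6 rose and 2 fell, with a median log2 fold change of 0.25, beside 9.54% higher and 24.9% lower over all genes tested. The same background holds for the lists that follow. Chsy1, which lengthens chondroitin chains, rose by 1.15 (limma adjusted p = 6.94e-04), and Dse, which turns chondroitin into dermatan sulfate, rose by 1.01 (adjusted p = 0.00184). Xylt2, which starts the linker on the core protein, fell by 0.75 (adjusted p = 0.00284), and B3gat3, which ends it, fell by 0.57 (adjusted p = 0.0259). The counts moved to 2 higher with the adipocyte score and to 3 higher and 0 lower with the macrophage score as a covariate. Among those named, Chsy1 and Dse kept their calls in 29 of 29 alternatives and Xylt2 in 28. B3gat3 kept its call in 21, losing it among others after quantile normalization (-0.38, limma adjusted p = 0.0985), after scaling by median ratios (-0.44, 0.116) and without Ang II 4, and its reads were not recovered for voom. Chpf was the least stable of the 6 that rose and kept its call in 11 of 29 alternatives. The lower count was also 4 without Saline 8. Of 6 tested keratan sulfate enzymes, 0 were called with limma, with the Wilcoxon test or with limma voom, and 1, Chst1 (0.61), had an unadjusted limma p under 0.05. The median of the 6 was 0.22. In other alternatives 1 was called higher, after either scaling, with the replicate block, with the fibroblast score or without Ang II 2, and 1 was called lower with the adipocyte score.

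Of 10 tested genes in a list made for the cutting of core proteins of the family, 3 rose and 0 fell (median 0.33). The 3 were Mmp2, Mmp14 and Pcolce, and Pcolce does not encode a protease. Mmp2, a gelatinase, rose by 1.79 (limma adjusted p = 4.41e-05) and Pcolce, which aids procollagen processing, rose by 0.65 (adjusted p = 0.0102). With the macrophage score as a covariate 1 rose. Adamts5, at -0.32, was the 1 lower gene with an unadjusted limma p under 0.05, and it was called lower with the Wilcoxon test and without Saline 4. Of 12 tested collagens that the proteins bind, 8 rose and 1 fell (median 1.18). Col5a2 rose by 2.13 (limma adjusted p = 1.14e-06) and Col1a1 by 2.11 (adjusted p = 1.92e-07), while Col14a1, a collagen of fibril surfaces, fell by 0.96 (adjusted p = 9.67e-04). Of 19 tested receptors and growth factors, 8 rose and 0 fell (median 0.43), among them the hyaluronan receptor Cd44 (1.48, limma adjusted p = 9.35e-05) and Wisp1 (1.23, adjusted p = 1.29e-04). No gene of these 19 was lower at an unadjusted limma p under 0.05 either. The higher count was 5 with the adipocyte score and 4 with the macrophage score as a covariate, and 6 to 8 when each library was left out. The least stable of the 8 were Tlr4, which kept its call in 16 of 29 alternatives, and P2rx7, in 13.

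Depth ran from 15779125 to 19988730 reads in Ang II libraries and from 14606864 to 17590088 in saline libraries, as read from the steps of the FPKM. The members had from 2 reads (Chad in Saline 2) to 212559 reads (Bgn). Saline 7, Saline 8 and Saline 2 stood apart from the other libraries on the first principal component, which held 46.9% of the variance. Saline 8 was the lowest saline library for Dcn, Ogn, Prelp, Omd and Aspn and the highest for Podn. Without those 3 libraries the log2 fold changes were 0.90 for Bgn, 1.89 for Chad, 1.04 for Podn, -1.65 for Ogn, -1.57 for Prelp and -1.14 for Omd, all called. The counts of markers stand beside 9.54% higher and 24.9% lower over all genes tested. Smooth muscle markers summed to 7621 to 12977 FPKM with Ang II and 10146 to 16514 FPKM with saline, and 4 of 10 fell. Fibroblast markers summed to 664 to 905 FPKM with Ang II and 720 to 1015 FPKM with saline, and 4 of 12 fell. Macrophage markers summed to 62.0 to 704 FPKM with Ang II and 20.5 to 640.3 FPKM with saline, and 5 of 11 rose. Adipocyte markers summed to 63.5 to 255 FPKM with Ang II and 109 to 579 FPKM with saline, and 2 of 11 tested fell. Endothelial markers summed to 189 to 1283 FPKM with Ang II and 488 to 1402 FPKM with saline, and 1 rose and 2 fell of 8. No marker of these lists was at 0 in all libraries. With the fibroblast, the adipocyte or the macrophage score as a covariate the 6 calls held; the part of smooth muscle and endothelial cells in them was not tested.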

How the data were processed

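The authors deposited one table of FPKM for 54532 genes in 16 aorta libraries, made from Trizol RNA with the SMARTER mRNA-seq kit per the labels' protocols. The submitters' processing notes name GRCm38 (mm10) as the build. Aligner, counter and strand use: not given in the sources used here. Library names in the labels tied columns to samples, and titles gave group and number. Gene IDs were matched to GENCODE M21 (99.9%). FPKM values were multiples of 1 read once the mean transcript length, rounded down, was used: 95.8% to 96.2% of values came within 0.02 of a whole number of reads. By gene it worked for 30443 of 31423 genes above 0, all members included, with a tolerance that widened in proportion to the reads at high counts. That tolerance was wide for Bgn, so the recovery of its reads was not shown at 0.02. At these depths 1 read in 1 kb is worth 0.0500 to 0.0685 FPKM.

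limma 3.58.1 (R 4.3.3, intensity trend) was run on log2(FPKM + 1), two-sided and with no covariate, keeping genes that averaged at least 0.5 FPKM. Benjamini-Hochberg adjustment was over all genes tested, with a threshold of 0.05. The same fit was run on simulated data with independent normal values for each gene. Those data held no outlying libraries such as Saline 2, 7 and 8. Fold changes on the log2(FPKM + 1) scale understate those of low genes. Ratios had exact permutation tests and pairs of genes permutation tests in Python 3.11.15 (scipy 1.17.1, numpy 2.4.6). Marker scores used as covariates were computed from lists of cell type markers. The alternatives were 2 scalings, a filter at 1 FPKM or none, a pseudocount of 0.1, the replicate number as a block, limma voom on recovered reads, a Wilcoxon test, leaving out each library or Saline 7 and 8 or Saline 2, 7 and 8, and 3 marker scores as covariates.

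The members and lists were chosen with earlier results of these data known. Named were all members, every further gene of the family, up to 2 genes that rose and 2 that fell per list by adjusted p among those averaging at least 1 FPKM, and the 2 most alike genes per member averaging at least 5 FPKM. Chst1, Adamts5, Chpf, Mmp14, Tlr4 and P2rx7 were named in the lists after their values were seen. Chosen after seeing the data were the order and shares of levels by deposited length, the permutation tests of pairs, and which 4 promoters are printed. The motif search was run first on 300-base windows with 5 motifs and then, with the CArG box added, on the 250 bases before the start; the second search is reported, and leaving out the 50 bases after the start removed 2 CAGACA matches in Prelp, 1 in Podn and 1 of 6 CCCTCCC matches in Bgn. CCCTCCC was picked after reading the sequences. The gene symbol Ccn2 was not matched, and protein sequences were not used here.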

Additional observations from a re-analysis of the deposited data

Results flagged for a closer look

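In each of 24 groups of 8 values (the 10 genes and the 2 ratios, each with Ang II and with saline) the highest and the lowest library were set against the rest, and 3 of them stood far from the other libraries. All 3 were in saline libraries. Chance alone flags about 1 in 20 such groups where values follow a normal distribution. The genes were compared in FPKM and not on a log scale. The coefficient of variation in saline libraries was 117% for Lum and 113% for Chad, so that rate was not shown to hold for them. Whether these libraries also stand apart on the log2(FPKM + 1) scale was not tested. Saline 2 had the lowest Bgn of its group, 2486 FPKM, against 3057 FPKM in the next library. Saline 2 also had the highest Lum, 55.3 FPKM, against 21.4 FPKM in the next. Saline 4 had the highest Chad, 10.6 FPKM, against 3.84 FPKM in the next. Without Saline 2 or without Saline 4, Bgn and Chad were still called higher with Ang II.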

How the results depend on the processing

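The 6 member calls held in 29 of 29 alternatives, and the count of members called higher was 3 in each. The count called lower was 5 with the macrophage score as a covariate, where Dcn (-2.04) and Fmod (-1.07) were added, and 3 to 4 when each library was left out. The log2 fold change of Lum turned to -0.24 without Saline 7 and 8, -1.11 with the macrophage score and -0.019 without Saline 4, and ran from -0.019 to 0.64 over libraries left out. That of Aspn turned to -0.15 without Saline 7 and 8, -0.23 without Saline 2, 7 and 8, -0.11 with the adipocyte score, -0.16 with the macrophage score and -0.081 without Saline 8, and ran from -0.081 to 0.12 over libraries left out. That of Dcn turned to 0.033 with the fibroblast score. The log2 ratio of Bgn to Dcn passed in 5 of 20 alternatives, among them without Saline 7 and 8 (2.23). It ran from 1.42 to 2.07 when each library was left out, and the cause was not tested. Over all genes, 879 were higher and 2192 lower with the adipocyte score, and 739 and 1863 with the macrophage score.

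With the replicate number as a block 3 members were higher and 3 lower, and the ratios of 1.73 and -0.95 had the same side of the threshold, so it changed no call of a member; over all genes 1414 were higher and 3531 lower. The numbers were not taken as pairs, because the labels tie them to nothing shared. Of the same-number correlations 5 of 8 were above 0.1, over a range of -0.25 to 0.39. Whether they exceed those between different numbers was not tested. As a hint from the data, 3 of 8 Ang II libraries correlated best with the saline library of their own number. The macrophage marker sum was highest at number 1 in both groups, 704 FPKM with Ang II and 640.3 FPKM with saline. Numbers 2, 3, 6 and 4 followed in that order in both, while the lowest sum was at number 5 with Ang II and number 8 with saline. That sum was higher with Ang II at 8 of 8 numbers, as was the cartilage sum, and the adipocyte sum at 0 of 8. A difference between groups alone also gives such counts. Depth limits Chad in Saline 2 (2 reads) and Fmod (from 13 reads); with 8 libraries a group and coefficients of variation of 80.0% to 117% for Dcn and Lum, moderate differences in these genes were not detectable.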
